A study of Rattus norvegicus with 74 samples.

Results

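The cytosolic ribosomal protein genes were taken as every gene annotated as protein coding whose symbol names a protein of the small subunit (Rps), of the large subunit (Rpl) or of the stalk (Rplp0, Rplp1 and Rplp2), plus Rpsa. The rule found 104 gene identifiers among the 30560 in the deposited count tables. These carried 79 symbols, 33 of the small and 46 of the large subunit, because 15 symbols were held by several identifiers. A lncRNA named Rpl30 and a pseudogene named Rpl8 matched by symbol and were left out as not protein coding, while Rpl7, Rpl10 and Rpl36al are not among the members and were not analysed here.

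The study sequenced RNA from 30 male wild-type Wistar Kyoto rats aged 9 weeks, in 74 libraries. SM libraries came from the whole red inner part of the gastrocnemius, a hind-limb muscle rich in oxidative fibres. MT libraries came from mitochondria immunocaptured from the same muscle while fresh and digested with RNase-A and proteinase-K, and LV libraries came from the wall of the left ventricle. SM and MT had 15 sedentary (Sed) and 15 trained (ExT) rats each, and LV had 7 and 7, all of them among the same 30 rats. Trained rats ran on a motorised treadmill for 4 weeks on 5 days a week, reaching sessions of 60 min at 20 m/min, with sampling 24 h after the final run. Sedentary rats were placed on a stationary treadmill, and every rat of both arms drank water with 8% deuterium oxide. RNA input was 50 ng for SM, 10 ng for MT and 100 ng for LV, and LV was prepared with another kit than SM and MT, so that tissue, kit and input cannot be told apart.

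SM libraries held 19477976 to 39401323 counts. MT libraries held 530397 to 9988027, and LV libraries 54645657 to 75758777. Skeletal fibre markers (Acta1, Ckm, Mylpf, Myh4, Myh7, Tnnt3) summed to 70300 to 135000 CPM (normalised read counts, scaled for library size) in SM, where cardiomyocyte markers summed to 3.04 to 20.7 CPM. Cardiomyocyte markers summed to 23400 to 33600 CPM in LV, and the satellite cell genes Pax7, Myf5 and Myod1 were at 0 in all LV libraries. No pair of libraries of a group agreed within counting noise. In bulk RNA, fewer cells of a type and less RNA per cell cannot be told apart.

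Each cytosolic ribosome is built from ribosomal RNA and one copy of most ribosomal proteins, so cells make these proteins in near-equal amounts. Their mRNAs are among the most abundant of the cell, and most begin with a 5′ terminal oligopyrimidine (TOP) tract, a C followed by further pyrimidines, through which mTORC1 and the La-related protein Larp1 control their translation. A few proteins have paralogs with tissue-restricted expression. Rpl3l is the form of Rpl3 found mainly in skeletal muscle and heart.

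RefSeq promoters of the GRCr8 rat build were available for 60 of the member symbols, as 61 promoters. The files themselves use the mRatBN7.2 build, so these coordinates are RefSeq's and were not joined to the counts. An unbroken run of at least 6 pyrimidines (C or T) opening with C, on the gene's own strand and beginning within 10 bases of the annotated start, was found in 32 of the 61 member promoters (52.5%) and in 5570 of all 33469 promoters in the table (16.6%). On the other strand the shares were 9.84% and 20.3%. The windows below run from 30 bases before to 20 bases after the start, with the run in capitals. They show tracts of different lengths in members whose values are described below, and set each of 3 genes beside its paralog.
Rplp0 (chr12:46718371-46718420, minus strand): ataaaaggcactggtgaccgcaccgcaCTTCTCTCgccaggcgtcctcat
Rpl28 (chr1:78083513-78083562, minus strand): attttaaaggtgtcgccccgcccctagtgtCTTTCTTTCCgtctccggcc
Rps15a (chr1:181860265-181860314, minus strand): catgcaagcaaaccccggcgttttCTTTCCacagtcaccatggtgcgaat
Rps27 (chr2:177964587-177964636, minus strand): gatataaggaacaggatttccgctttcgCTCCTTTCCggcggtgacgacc
Rps27l (chr8:76443628-76443677, plus strand): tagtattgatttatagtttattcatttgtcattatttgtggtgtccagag
Rpl22 (chr5:168117931-168117980, plus strand): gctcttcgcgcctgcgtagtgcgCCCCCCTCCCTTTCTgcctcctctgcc
Rpl22l1 (chr2:113683166-113683215, plus strand): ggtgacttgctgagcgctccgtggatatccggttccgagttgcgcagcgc
Rpl3 (chr7:113507971-113508020, minus strand): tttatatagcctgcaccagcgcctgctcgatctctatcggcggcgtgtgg
Rpl3l (chr10:14258416-14258465, plus strand): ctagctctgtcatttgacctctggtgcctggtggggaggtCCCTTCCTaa

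The tracts of Rps27 and Rpl22 are 9 and 15 bases long, and no such run lies in the windows of Rps27l and Rpl22l1. The run in Rpl3l begins 10 bases after the annotated start, at the edge of the search, and Rpl3 has none in its window. A match describes these letters, not a working element, and an absent match says only that the letters are not in this window of the annotation.

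The members took a median of 0.869% of the counts of nuclear-encoded genes in sedentary whole muscle (0.716% to 1.02% over 15 libraries) and 0.836% in trained whole muscle (0.69% to 1.05%). In left ventricle the medians were 1.36% sedentary (1.21% to 1.47%, 7 libraries) and 1.31% trained (1.12% to 1.45%). In the mitochondrial libraries they were 0.197% sedentary (0.177% to 0.3%) and 0.197% trained (0.189% to 0.339%). The arms overlapped in each kind of library. The second and later identifiers of a symbol were mostly near zero, 22 of 25 being under 1 CPM in SM on average, and 3 members had no count in any SM library. Where identifiers are near-identical copies, reads may be shared between them, and their values are uncertain.

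The first question was whether training moved these mRNAs in whole muscle. No member passed an adjusted p of 0.05 (edgeR's quasi-likelihood test with Benjamini-Hochberg adjustment over all genes tested), out of 79 that passed the filter on low counts. Among all 13570 genes tested, 28 (0.206%) were called, 25 of them higher and 3 lower in trained rats. The members' log2 fold changes were small and mostly of one sign, 75 of 79 being below 0, with a median of -0.10 against -0.005 for all genes. All 35 small-subunit members tested were below 0 (median -0.11), as were 40 of the 44 large-subunit members (median -0.09). At an unadjusted p under 0.05 there were 17 members and 1860 genes in all, and DESeq2 also called 0 members.

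**Figure D1:**
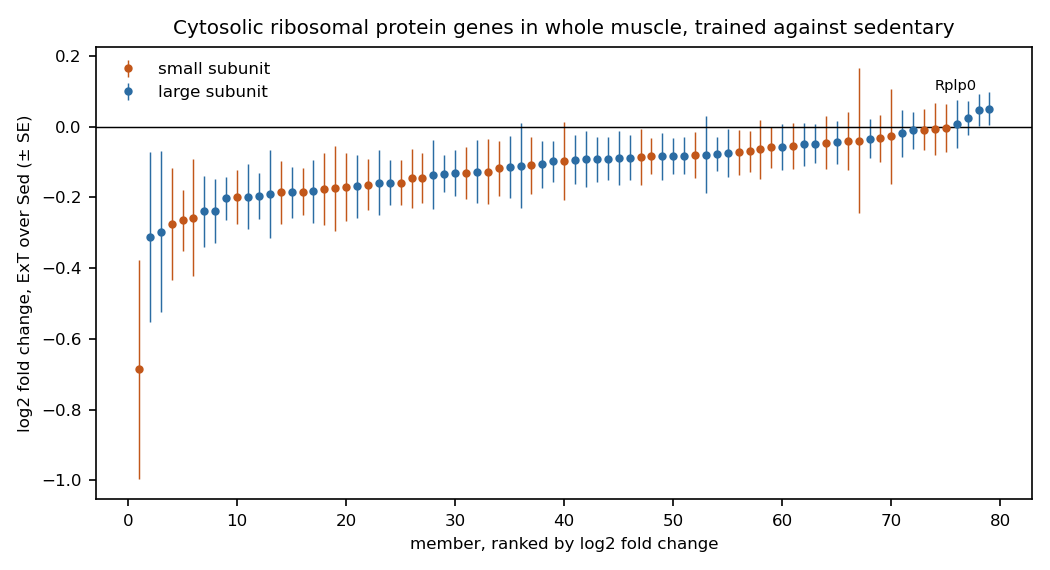
Log2 fold change of trained over sedentary whole muscle (y axis, edgeR, error bars are 1 standard error) for the 79 members tested, ranked (x axis) and coloured by subunit. All but 4 points lie below 0, Rplp0 is highest at 0.05, and none passed an adjusted p of 0.05.

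Among small-subunit members, Rps15a had 30.1, 38.1 and 57.2 CPM as the lowest, median and highest sedentary values and 25.5, 32.3 and 39.5 CPM in trained muscle. The groups overlapped over most of their range, with the highest sedentary libraries above all trained ones. The difference was -0.26 on the log2 scale (SE 0.086), and edgeR's adjusted p was 0.173. Rps27, a zinc-finger protein of the small subunit and the partner of Rps27l, had sedentary values of 52.5, 59.7 and 86.4 CPM and trained values of 48.0, 57.7 and 63.9 CPM (log2 fold change -0.16, SE 0.065, edgeR adjusted p = 0.284). Rps6, the subunit protein phosphorylated by S6 kinase, stood at 146, 181 and 238 CPM sedentary and 147, 184 and 211 CPM trained, with a log2 fold change of -0.05 (SE 0.064). Rpsa, the laminin-receptor-related protein, differed by -0.03 (SE 0.066) around medians of 199 and 202 CPM. Rps27a, made as a fusion with ubiquitin, differed by -0.12 (SE 0.078). For Rps6, Rpsa and Rps27a the sedentary and trained ranges lay largely on top of each other.

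Among large-subunit members, Rpl31 had the smallest p. Its lowest, median and highest values were 48.9, 60.4 and 71.0 CPM in sedentary and 35.6, 53.2 and 59.9 CPM in trained muscle, so that the sedentary median lay above every trained library. The log2 fold change was -0.20 (SE 0.061) and the edgeR adjusted p was 0.141. Rpl38 followed with medians of 39.7 and 35.0 CPM (log2 fold change -0.20, SE 0.064, edgeR adjusted p = 0.175). Rpl5 and Rpl11, which with the 5S ribosomal RNA form the particle that can bind Mdm2, had log2 fold changes of -0.09 (SE 0.063) and -0.19 (SE 0.072). Their sedentary medians were 234 and 113 CPM and their trained medians 224 and 93.5 CPM, with overlapping ranges.

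The members above 0 in whole muscle were 2 stalk proteins and the Rpl3 pair. The stalk is the large-subunit protrusion that recruits translation factors. Rplp0 had 244, 272 and 292 CPM sedentary and 231, 274 and 337 CPM trained (log2 fold change 0.05, SE 0.047). Rplp2 differed by 0.03 (SE 0.048), while the third stalk protein, Rplp1, differed by -0.09 (SE 0.077). Rpl3l had 229, 263 and 300 CPM sedentary and 238, 269 and 303 CPM trained (0.05, SE 0.045), and Rpl3 had 30.3, 38.0 and 52.2 CPM against 30.4, 37.9 and 45.5 CPM (0.01, SE 0.068). Of the other paralogs tested in SM, Rpl22 differed by -0.13 (SE 0.053), Rpl22l1 by -0.19 (SE 0.12), Rpl39 by -0.20 (SE 0.093), Rps27l by -0.13 (SE 0.091) and Rpl7l1 by -0.08 (SE 0.051). For the stalk and Rpl3 pair members the edgeR adjusted p lay at 0.646 or above, and the groups overlapped.

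Genes that work with the ribosome were also without a call in the training comparison. Rack1 and Fau, ribosomal proteins whose symbols lie outside the rule, had log2 fold changes of -0.09 and -0.08. None of 15 translation factors and related genes of the TOP class was called (median -0.01), nor any of 50 ribosome biogenesis genes (median -0.04), of 11 genes that control TOP mRNAs (median -0.001), or Eef1a2, the muscle elongation factor (0.05). The skeletal fibre markers, none of 6 called, had a median of -0.13 in the same fit, and their summed level ran from 76200 to 135000 CPM in sedentary and from 70300 to 106000 CPM in trained muscle. No gene of the endothelial, fibroblast, immune, red cell, satellite cell, Schwann cell, smooth muscle or adipocyte lists was called. Their median log2 fold changes lay on both sides of 0, with 0.67 for the Schwann cell, 0.40 for the smooth muscle, 0.20 for the endothelial and 0.28 for the red cell list. They were -0.26 for the immune and -0.18 for the fibroblast list. The summed Schwann cell markers had medians of 24.4 CPM in sedentary and 66.8 CPM in trained muscle, over overlapping ranges (5.01 to 106 and 16.8 to 127 CPM). The part of these lists in the members' values was not tested.

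The rats carry numbers in the labels, and the whole-muscle libraries fell into rats 2 to 16 and rats 17 to 32, with 7 and 8 rats in each arm. The labels do not say what divides these ranges. Within rats 2 to 16 the members' median training difference was -0.02, with 52 of 81 tested below 0. Within rats 17 to 32 it was -0.16, with 72 of 77 below 0. The difference between the ranges was fitted as a product term, chosen after the data were seen: 71 of 79 members were below 0 (median -0.15), but 0 passed an edgeR adjusted p of 0.05 (smallest 0.244; 12 at an unadjusted p under 0.05), where 0% of all 13570 genes passed. The mean log2 deviation of the members from their SM average, one value a library, had a median of 0.07 in the early and 0.04 in the late sedentary rats. It was 0.04 in the early and -0.17 in the late trained rats.

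**Figure D2:**
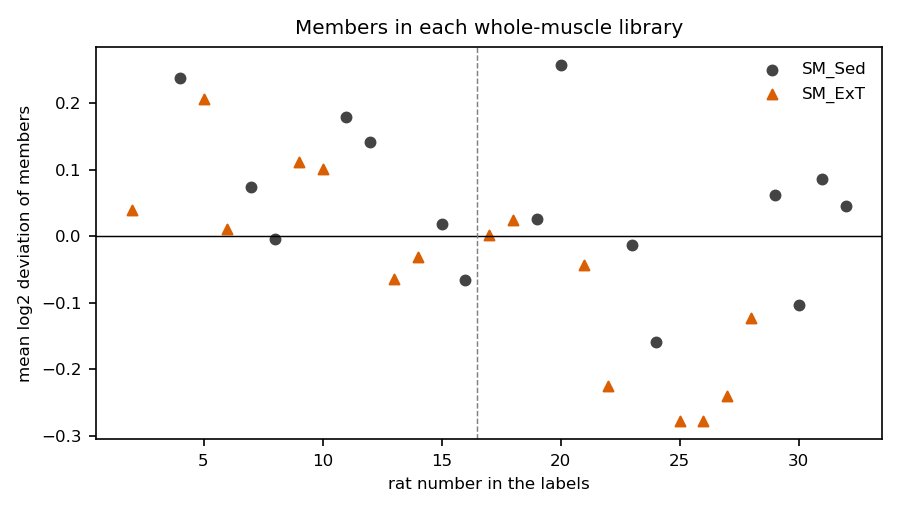
Mean log2 deviation of the members from their average over whole-muscle libraries (y axis) against the rat number in the labels (x axis), with circles for sedentary and triangles for trained rats and a dashed line between rats 16 and 17. The trained rats numbered above 16 reach from -0.28 to 0.02 and have the lowest median, and their range overlaps those of the other sets.

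With arm as a covariate, 28 of 79 members differed between the rat ranges in whole muscle at an edgeR adjusted p under 0.05, 25 lower and 3 higher in rats 17 to 32, against 13% of all 13570 genes called in either direction. This contrast too was chosen after seeing the data. Lower were, among others, Rps24 (log2 -0.51, SE 0.079), Rpl13 (-0.47), Rpl23 (-0.42), Rpl21 (-0.40), Rps16 (-0.38) and Rps15 (-0.37), and higher were Rpl22l1 (0.35), Rps3 (0.23) and Rpl6 (0.22). Rack1 and Fau were also called lower, as were 6 of 15 TOP-class genes (Naca, Eif3l, Eif3k, Eif3h, Eif3f and Eef1b2). Of the skeletal fibre markers 4 of 6 were called lower too (Ckm, Acta1, Tnnt3 and Mylpf), and the part of that shift in the members' values was not tested. In the mitochondrial libraries 0 of 66 members differed between the ranges, against 1.67% of all genes. That test carries far fewer counts for each member.

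The median count over the members tested was 11 to 29 in single mitochondrial libraries, against 1131 to 2198 in whole-muscle libraries. None of 66 members was called between trained and sedentary MT, as was 0% of all 19281 genes tested. The members' median log2 fold change was 0.07, with 46 of 66 above 0, and 6 had an unadjusted p under 0.05 (912 genes in all). DESeq2 called 0 members. Rpl27, a large-subunit protein, had the smallest p. Its lowest, median and highest levels were 2.17, 5.11 and 7.84 CPM in sedentary and 1.93, 7.95 and 16.9 CPM in trained mitochondria, with the groups overlapping. The log2 fold change was 0.63 (SE 0.19), with an edgeR adjusted p of 0.9997. Among the members with named roles, Rps27a was highest at 0.34 (SE 0.17) and Rplp1 lowest at -0.24 (SE 0.17), while Rplp0 differed by 0.08 (SE 0.25), Rpl3l by 0.02 (SE 0.13) and Rpl3 by 0.17 (SE 0.14).

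The 4 MT libraries with the highest totals, 6001091 to 9988027 counts, stood apart. They were trained rats 2, 27 and 28 and sedentary rat 15, and genes of the mitochondrial genome took 87.3% to 95.4% of their counts, against 12.9% to 81.2% in the other MT libraries. They also had the highest member shares, 0.274% to 0.339% of nuclear-encoded counts. Without these 4 libraries the median training difference of the members turned from 0.07 to -0.06, with 40 of 67 below 0 and 0 called. Leaving out 1 of them at a time gave medians of 0.02 (trained rat 2), 0.03 (trained rat 27), 0.02 (trained rat 28) and 0.10 (sedentary rat 15). The direction of the members in the mitochondrial comparison thus rested on these libraries, and the setting without all 4 was chosen after seeing the data.

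In left ventricle none of 80 members was called between the arms (0% of all 14488 genes), and none had an unadjusted p under 0.05, against 855 genes in all. DESeq2 called 0 members. The median was -0.02, with 55 below 0. The smallest p was that of Rpl3l, whose lowest, median and highest levels were 41.8, 46.7 and 51.6 CPM in sedentary and 45.2, 50.4 and 59.5 CPM in trained hearts. The ranges overlapped, and the log2 fold change was 0.13 (SE 0.066), with an edgeR adjusted p of 0.804. Rplp0 differed by 0.04 (SE 0.054), Rps6 by -0.005 (SE 0.056), Rpl5 by -0.03 (SE 0.053) and Rpl39 by -0.12 (SE 0.072). The small median turned on single hearts: it was -0.05 without trained rat 25 and 0.006 without trained rat 17.

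Whether training differed between kinds of library was fitted as an interaction. For MT against SM, 0 of 95 members tested were called (0.0181% of all 27684 genes), 5 had an unadjusted p under 0.05 and the smallest adjusted p in edgeR was 0.232, for Rpl27. For LV against SM of the same 14 rats, 0 of 83 were called (0% of all 15049 genes) and every adjusted p in edgeR was 1, although 75 of 83 lay above 0 (median 0.17) and 18 had an unadjusted p under 0.05. DESeq2 called 0 members in both interactions. The LV rats were 6 of rats 17 to 32 and 1 of rats 2 to 16 in each arm. The members' training difference in SM was larger in that later range, and its part in the LV against SM median was not tested.

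Mitochondria and whole muscle of the same rats differed far more. In sedentary rats all 78 members that passed the filter were called, 75 lower and 3 higher in MT. Of all 22842 genes tested 94.8% were called, 33.1% lower and 61.7% higher, so that a call as such was near universal. Genes too low in SM for the filter also entered through MT, as only 13570 genes were tested in the SM comparison of arms. The shares higher and lower, and the median of all genes, therefore depend on which genes the filter admits. The members' median log2 fold change was -3.95, while the median of all genes was 1.81 under this scaling. Scaled by library totals alone, the 2 medians moved up together, to -2.48 and 3.43. Trained rats gave 75 lower and 3 higher of 78 (of all 21312 genes 94.3% were called, 35% lower and 59.3% higher), with a median of -3.81 against 1.31 for all genes. In the MT comparison of arms only 66 members passed the filter. Rpl30 and the second identifiers of Rpl12 and Rps4x, each at a median of 0 CPM in sedentary MT, entered only through SM. For these, and for any other member that entered through a single kind of library, the direction was set by the filter. Nothing is drawn from the direction of such members. RNase treatment, RNA input and depth differ between MT and SM along with the compartment, and these cannot be told apart.

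Large falls were seen across ribosomal roles. The fold sizes below are under the reported scaling and depend on it, as library totals alone moved the members' median up. Rplp0, the stalk base, had 399.5, 443 and 489 CPM as the lowest, median and highest values in sedentary SM and 4.52, 7.66 and 21.9 CPM in MT, so that no libraries overlapped. It was 48.3-fold lower in MT (log2 fold change -5.60, SE 0.12). Rpl4 was 51.1-fold lower and Rpl5 44.2-fold lower. Rps6 stood at 237, 300 and 384 CPM in SM and at 5.18, 7.77 and 17.1 CPM in MT, a 34.5-fold difference. Rpsa was 31.6-fold and Rps27a 20.4-fold lower, and in all of these the lowest SM library lay above the highest MT library.

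Some members were lowered less. Rpl22, an RNA-binding large-subunit protein, had 59.9, 74.8 and 87.0 CPM in SM and 9.5, 14.3 and 19.2 CPM in MT, or 5.18-fold lower. In trained rats Rpl22 was 4.33-fold lower, but its log2 fold change was 0.03 when every library was thinned to the smallest total. Its paralog Rpl22l1 had medians of 7.86 and 3.07 CPM (log2 fold change -1.33, SE 0.17), but came out above 0 when libraries were scaled by their totals alone. Rpl3l fell 37.6-fold (medians 434 and 12.1 CPM) and Rpl3 fell 6.55-fold (61.9 and 8.02 CPM). The members spanned a narrower range in MT. Over the 71 members with a mean of at least 5 CPM in SM, taking the highest-count identifier of each symbol, means lay between 6.69 and 444.5 CPM in SM. In MT they lay between 0.482 and 14.3 CPM. Across those 71 genes, which share libraries and are not independent, log2 levels had a Pearson correlation of 0.62 and a Spearman correlation of 0.46 between SM and MT.

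**Figure D3:**
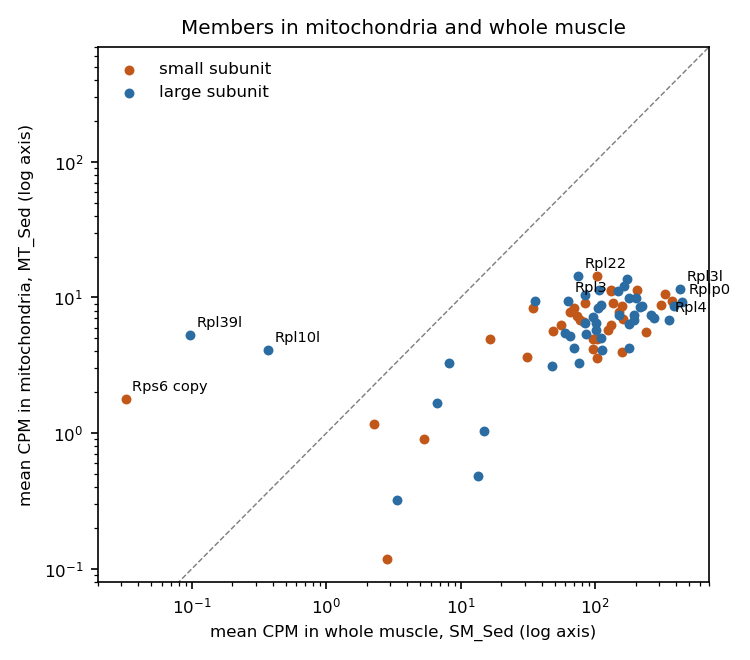
Mean CPM of each member tested in sedentary mitochondria (y axis, log) against sedentary whole muscle (x axis, log), coloured by subunit, with the dashed line marking equal values. The 3 labelled points above the line are Rpl39l, Rpl10l and an Rps6 copy, and the other members lie below it.

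The 3 members higher in MT had few counts. Rpl39l, a paralog of Rpl39 known from testis, had 5, 13 and 32 counts as the lowest, median and highest in sedentary MT and 0, 2 and 5 in sedentary SM, whose libraries are deeper. Rpl10l, another testis-associated paralog, had 6, 11 and 21 counts in MT and 1, 6 and 14 in SM. The Rps6 copy ENSRNOG00000049025 had 2, 4 and 11 counts in MT and 0, 0 and 2 in SM. Their log2 fold changes were 5.61 (SE 0.26), 3.46 (SE 0.27) and 5.35 (SE 0.37). Their SM counts were too low for the filter, so these members entered the test only through the MT libraries. Their direction was thus set in advance by the filter, and nothing is drawn from it. When every library was thinned to the smallest total, these genes were not among the 66 members tested, of which 65 were called and 0 were higher in MT.

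Companion genes were also called in MT. Rack1 and Fau were both lower (median log2 fold change -4.57 in sedentary rats), as were 15 of 15 TOP-class genes (median -3.36), and of 50 biogenesis genes 37 were lower and 8 higher (median -0.71). The skeletal fibre markers were lower in 6 of 6 (median -9.57), while the cardiomyocyte markers were higher in 6 of 6, at a summed level of 228 to 313 CPM in sedentary MT. Also lower were 5 of 5 endothelial (median -2.05), 5 of 5 fibroblast (-4.40) and 3 of 3 smooth muscle genes (-3.14). Of the adipocyte list 2 of 3 were higher (2.89), and of the immune list 2 of 5 were higher and 1 lower. The satellite cell list had 2 of 3 higher and 1 lower, and the Schwann cell and red cell lists had 1 lower each. In the SM comparison of arms only 3 of the 6 cardiomyocyte and 1 of the 3 adipocyte genes passed the filter. The others entered here only through MT. Their direction was thus set in advance by the filter, and nothing is drawn from it. The part of these lists in the members' values was not tested.

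Between left ventricle and whole muscle of the same rats, members differed in level in both directions, about as often as genes in general. In sedentary rats 67 of 80 members were called, 41 higher and 26 lower in LV, where 78.7% of all 14367 genes were called, 40% higher and 38.6% lower. In trained rats 63 of 80 were called, 43 higher and 20 lower (79.3% of all 14338 genes, 39.7% higher and 39.5% lower). Of these, 61 members were called alike in both arms, 41 being higher in LV and 20 lower, and 0 were called in opposite directions. The arms used separate rats, 6 of rats 17 to 32 and 1 of rats 2 to 16 in each. Scaled by library totals alone, the split became 48 higher and 18 lower in sedentary and 53 higher and 17 lower in trained rats. By subunit, 22 of 35 small-subunit members were higher and 6 lower in sedentary LV, and 19 of 45 large-subunit members were higher and 20 lower. In trained rats 23 of 35 small-subunit members were higher and 5 lower, and 20 of 45 large-subunit members were higher and 15 lower.

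The members lower in LV were led by Rps16, a protein of the small subunit's decoding face. It had 208, 216 and 263 CPM as the lowest, median and highest values in sedentary SM and 2.59, 3.3 and 4.47 CPM in LV, a 65.4-fold difference with no overlap. On the log2 scale the difference was -6.03 (SE 0.11), and edgeR's adjusted p was 2.179e-19. Rpl28 had 105, 117 and 129 CPM in SM and 17.1, 18.7 and 20.4 CPM in LV, or 6.27-fold lower. Rps15 was 2.98-fold, Rpl29 2.86-fold and Rpl17 2.71-fold lower, and Rpl30 fell from medians of 9.35 to 0.735 CPM. Trained rats gave 63.7-fold for Rps16 and 6.03-fold for Rpl28. Kit and tissue cannot be told apart here, and copies elsewhere in the genome may take reads from single members.

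Higher in LV were Rpl39, a short protein at the exit tunnel, and several small-subunit genes. Rpl39 had 3.5, 4.09 and 5.59 CPM in sedentary SM and 26.4, 32.7 and 34.1 CPM in LV, or 7.26-fold higher (log2 fold change 2.86, SE 0.11), again with no overlap. Rps10 was 2.68-fold higher, from 18.9 to 23.7 CPM in SM to 52.8 to 61.5 CPM in LV. Rps23 was 2.32-fold and Rps15a 2.13-fold higher. Rpl10l was 18.8-fold higher in sedentary rats and 7.07-fold higher in trained rats (log2 fold change 2.82, SE 0.35, in trained rats). It had 156 to 401 counts a library in sedentary LV, against 1 to 14 over all sedentary SM libraries. The SM counts of Rpl10l were too low for the filter, so it entered the test only through LV. Its direction was thus set in advance by the filter, and nothing is drawn from it.

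Several members with named roles differed less between the tissues, at least in sedentary rats. Rplp0 was 1.13-fold higher in sedentary LV (log2 fold change 0.18, SE 0.057) and Rplp1 1.15-fold higher (0.20, SE 0.076). Rplp2 (-0.03, SE 0.075), Rps6 (-0.09, SE 0.081), Rpl11 (-0.07, SE 0.072), Rpsa (0.06, SE 0.053) and Rps27 (0.03, SE 0.095) were not called in sedentary rats. In trained rats Rpl11 (0.24, SE 0.069) and Rps27 (0.27, SE 0.080) were called higher in LV, with edgeR adjusted p of 0.00414 and 0.00498, and Rplp2, Rps6 and Rpsa were not called. In sedentary rats Rplp2, Rps6 and Rpl11 changed sign when libraries were scaled by totals alone. Rpl5 was 1.32-fold lower and Rps27a 1.61-fold higher.

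**Figure D4:**
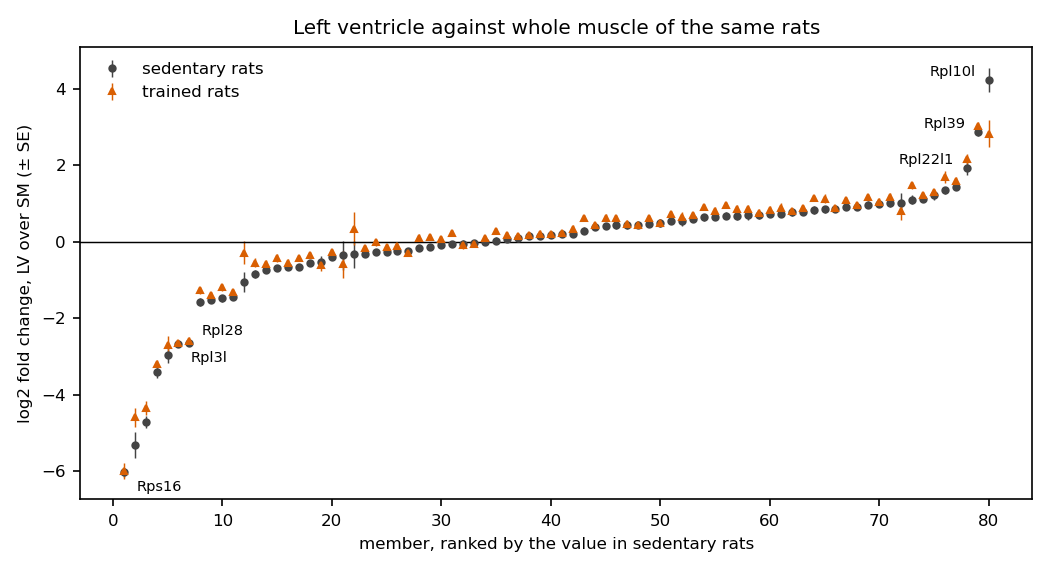
Log2 fold change of left ventricle over whole muscle of the same rats (y axis, edgeR, error bars are 1 standard error) for the members tested, ranked by the sedentary value (x axis), with circles for sedentary and triangles for trained rats. Rps16 lies lowest at -6.03, Rpl3l and Rpl28 near -2.7, and Rpl10l and Rpl39 highest in sedentary rats. The trained values lie near the sedentary ones for most members, Rpl10l being lower. Rpl10l entered the test only through LV.

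Companion genes in sedentary LV against SM were lower in 9 and higher in 5 of 15 TOP-class genes, lower in 27 and higher in 9 of 50 biogenesis genes, and lower for Eef1a2 (log2 fold change -2.12). Rack1 and Fau split, one being called higher and one lower. The markers of the tissues differed as the labels say, with the skeletal fibre list lower in 6 of 6 and the cardiomyocyte list higher in 6 of 6. In the comparisons of arms, only 3 of the 6 cardiomyocyte genes passed the filter in SM and 4 of the 6 skeletal fibre genes in LV. The direction of the others was set by the filter.

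Paralog pairs were compared within libraries, as shares of the counts of a pair, which no scaling between libraries touches. Rpl3l made up a median of 87.4% of the Rpl3l and Rpl3 counts in sedentary SM (81.5% to 90.1%) and 87.0% in trained SM (84.7% to 90.6%). In LV it made up 42.8% (35.4% to 50.2%) sedentary and 45.7% (37.5% to 54.5%) trained, so that every LV library lay below every SM library. In MT the medians were 57.8% (41.2% to 69.0%) and 55.6% (31.3% to 69.7%), from 15 to 47 Rpl3l counts a library. In sedentary LV against SM, Rpl3l was 6.34-fold lower (medians 270 and 43.1 CPM) and Rpl3 was 1.40-fold higher (40.0 and 57.7 CPM).

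**Figure D5:**
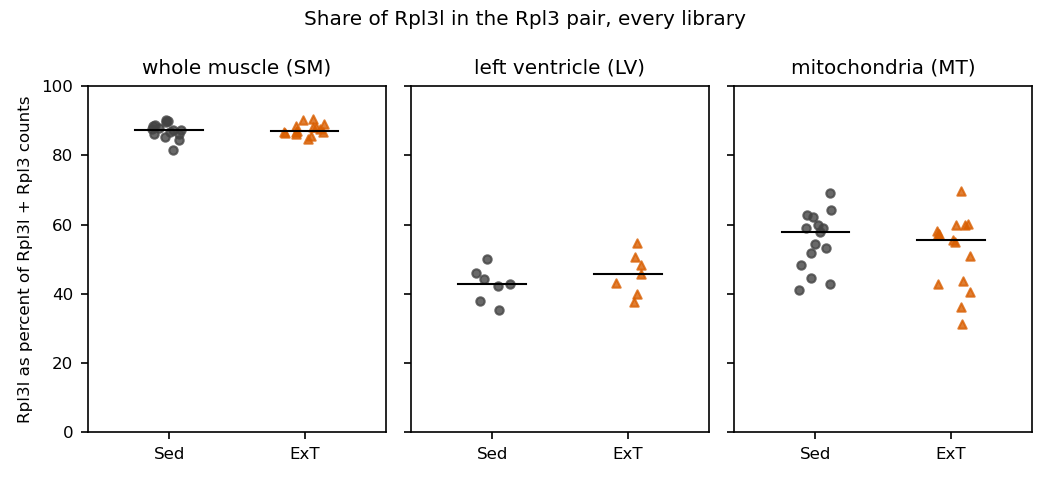
Rpl3l as a percent of the Rpl3l and Rpl3 counts in each library (y axis), by arm (x axis) in whole muscle, left ventricle and mitochondria, with bars at the medians. SM libraries lie between 81.5% and 90.6%, LV libraries between 35.4% and 54.5%, and the arms overlap in each panel.

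For the Rpl22 pair, Rpl22l1 made up 9.0% of counts in sedentary and 9.17% in trained SM, and 41.3% and 42.0% in LV. In sedentary LV Rpl22l1 was 3.81-fold higher than in SM, and Rpl22 was 1.57-fold lower. For Rps27l the shares were near each other in the tissues, 14.3% and 14.2% in SM and 11.7% in both arms of LV. Rpl39l made up 1.53% of its pair in sedentary and 2.82% in trained SM. In sedentary MT its share was 77.8%, on a median of 13 Rpl39l and 4 Rpl39 counts.

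Training did not move these ratios past the threshold. Among 7 ratios tested (the pairs with at least 10 counts of both genes in every library, 3 in SM, 1 in MT and 3 in LV), every Benjamini-Hochberg adjusted p was 0.884 in permutation tests over libraries. The log2 ratio of Rpl3l to Rpl3 differed by 0.04 in SM and by -0.20 in MT between trained and sedentary rats. In LV it differed by 0.17, with an exact two-sided permutation p of 0.329 for 7 against 7 rats. The Rpl22l1 ratio differed by -0.05 in SM and -0.05 in LV, and the Rps27l ratio by 0.02 and 0.01.

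Members varied together between libraries. Over 69 members at 5 CPM or more in SM, the median correlation between pairs of members was 0.39 over 15 sedentary and 0.56 over 15 trained libraries. Over 68 members in LV it was 0.58 and 0.85, each over 7 libraries, and in MT 0.22 and 0.34. For pairs of all genes at that level the medians were close to 0. Members share each library's depth, preparation and cell mixture, so these values describe the libraries. In MT the 4 libraries with the highest totals also had the highest mean log2 deviations of the members, 0.45 to 0.69. Their part in the MT correlations was not tested.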

How the data were processed

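Bulk RNA-seq libraries of whole muscle, mitochondria and left ventricle were analysed from deposited tables of raw read counts per gene. Per the submitters' processing notes, the tools were FastQC 0.74, cutadapt 4.6, STAR 2.7.11a and HTSeq, with the mRatBN7.2 build; the strand setting and the treatment of reads with several matches are not given in the sources used here. Counts were fitted with edgeR 4.0.16 in R 4.3.3 (TMM scaling, filterByExpr, robust quasi-likelihood F test) on all genes, with Benjamini-Hochberg adjustment over all genes tested and a threshold of 0.05. CPM values were scaled within each comparison, so a gene's CPM can differ widely between comparisons for the same libraries. The mean of Rplp0 in sedentary SM was 271.5 CPM in the training comparison and 444.5 CPM in the comparison with MT. CPM values can therefore be set side by side only within a comparison. No gene lengths were used, so shares within paralog pairs and the spread of levels across members are in counts, not corrected for length. Ratios used a pseudocount of 0.5, with exact permutations for 7 against 7 libraries and 100000 resamples otherwise. DESeq2 1.42.0 and the other alternatives are given in the closing section. The edgeR fits of the training and MT against SM comparisons were also run on simulated counts. These were drawn independently for each gene, without the shared variation of the members, and no result here rests on them.

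Members and gene lists were chosen with earlier results of these data known. Named members were the paralog pairs, the stalk proteins, Rpsa, Rps6, Rpl5, Rpl11 and Rps27a, and in each comparison the called members of at least 5 CPM with the 4 largest and 4 smallest fold changes, plus some with the smallest p, chosen after their values were seen. Rat numbers mark the same animal across kinds of library. The reported fits between kinds of library did not use this pairing, and fits with rat as a block are in the closing section. Deviations of same-rat SM and MT libraries had a median correlation of 0.02 over 30 pairs (-0.10 to 0.22), and SM and LV of 0.06 over 14 pairs. For libraries of different rats the medians were -2.911e-05 and -0.0005356. Libraries of a group are separate rats. Some members that the naming rule would pick are not reported here.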

Additional observations from a re-analysis of the deposited data

Results flagged for a closer look

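Of 50 values checked for a library far from the rest in the groups of 7 hearts, 1 stood out, and chance alone gives about 1 in 20. Rplp0, the base of the stalk, had 438.0 CPM in the left ventricle of trained rat 25. The next highest trained heart had 380.1 CPM and the lowest 350.4 CPM, so that the gap took up 0.66 of the group's range, more than Dixon's test allows for 7 values. The heart of rat 25 was high across the members: their mean log2 deviation there, 0.193, was the highest of the 14 hearts, so the high value was not particular to Rplp0. Rplp0 was not called between the arms in LV.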

How the results depend on the processing

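Counts of members called stayed within 1.5 times of those reported under all alternatives run: RLE size factors, library totals alone, no filter on low counts, the mitochondrial genome left out, DESeq2, the rat ranges singly or as a covariate, thinning, and each library left out. With the replicate block (rat number, paired by animal) 78 members were called in MT against SM in each arm, 66 and 64 in LV against SM, and 0 in both interactions. The LV counts were 67 and 63 without the block, and it moved no count of calls by over 1.5 times. Log2 fold changes of named members changed sign as follows, nearly all in values that were not called, and the cause was not tested. In SM training, rats 2 to 16 alone gave Rpl3l -0.00276, Rpl7l1 0.01871, Rps27 0.02115, Rplp1 0.01869, Rpsa 0.09744 and Rps6 0.03816, and rats 17 to 32 alone gave Rpl3 -0.05812, Rps27l 0.04735 and Rplp0 -0.0239. In MT training, rats 2 to 16 alone gave Rpl3l -0.0237, Rplp0 -0.3085, Rps6 -0.03193 and Rpl11 -0.2507, totals alone gave Rplp0 -0.0403, and leaving out the 4 deepest libraries gave Rpl3 -0.0497, Rplp0 -0.155, Rpsa -0.05741 and Rps6 -0.0822. In MT against SM, where these members were called in the reported fit, totals alone gave Rpl22l1 0.2938 in sedentary and 0.6977 in trained rats, and thinning gave Rpl7l1 0.3447 and Rpl22 0.03113 in trained rats. In LV against SM, totals alone gave Rps27l 0.1811, Rplp2 0.2083, Rps6 0.1506 and Rpl11 0.1754 in sedentary and Rps27l 0.1111 and Rplp2 0.1432 in trained rats, and no filter gave Rplp2 0.004282 in sedentary rats. Among SM ratios, rats 2 to 16 alone gave -0.09543 for Rpl3l to Rpl3 and -0.3332 for Rps27l to Rps27, and rats 17 to 32 alone gave 0.0005131 for Rpl22l1 to Rpl22. Leaving out 1 library at a time moved Rpl3 in SM training between -0.01494 and 0.04557. In MT training it moved Rpl3l between -0.03663 and 0.07079, Rpl39l between -0.1865 and 0.008224, Rpl10l between -0.01245 and 0.1132, Rplp0 between -0.1324 and 0.213 and Rps6 between -0.01698 and 0.1925. In LV training it moved Rpl3 between -0.1158 and 0.01337, Rpl22 between -0.002497 and 0.03929, Rpl22l1 between -0.06119 and 0.02404, Rplp2 between -0.03748 and 0.02652, Rpsa between -0.02175 and 0.03904, Rps6 between -0.03454 and 0.02621 and Rpl11 between -0.02986 and 0.0324. Depth limits the MT comparisons, where the median count over members was 11 to 29 in single libraries. The comparison of levels per coding length was not run.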
